A study of Mus musculus with 12 samples.

Results

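The 43 integrin and laminin genes described here were the rows of the count tables that are named as an integrin alpha or beta subunit or a laminin alpha, beta or gamma chain, together with *Nid1*, *Nid2*, *Hspg2*, *Fn1*, *Thbs1* and *Thbs2*. They were 43 of 35976 genes, namely 26 integrin subunits (18 alpha and 8 beta), 11 laminin chains, 3 genes for nidogens and perlecan and 3 for fibronectin and thrombospondins. Genes were included by name and not by a measured value, but the set was chosen with earlier results of these data known. They were measured by strand-specific RNA-seq in testes of outbred Swiss mouse embryos at E15.5. The pregnant founder females had received thiacloprid (*thia*), a neonicotinoid insecticide, by gavage in olive oil from E6.5 to E15.5 at 6 mg/kg/day, and the control females the same volume of oil. The 4 groups of 3 libraries were F1 control, F1 *thia* (embryos exposed in the womb), F3 control and F3 *thia* (never dosed themselves, and reached through males mated with unrelated untreated females). Each library was a pool of the testes of 3 embryos, so the error given throughout is the spread between pools and not between animals, and which litter a pool came from was not given. The treatment and breeding were carried out in repeat runs, and the run of each library was not given either.

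Integrins are cell-surface receptors, each made of an alpha and a beta subunit, that hold cells to the matrix around them and pass signals inwards. Laminins are trimers of an alpha, a beta and a gamma chain that, with collagen IV, nidogens and perlecan, build basement membranes. In the fetal testis such a membrane encloses the cords of Sertoli and germ cells and others underlie the blood vessels, so these genes are transcribed by several cell types of the pooled tissue. In such bulk samples fewer cells of a type and less RNA per cell cannot be told apart.

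Libraries held 25081647 to 68996146 counts. The 43 genes together made up 0.366 to 0.405% of an F1 library and 0.265 to 0.442% of an F3 library. The library F3 *thia* replicate 2 stood apart from the other members of its group, with a chi-square per degree of freedom over genes of 90.7 and 100.87 against them, where the 10 other pairs of replicates had 17.3 to 42.2. The edgeR calls in F3 and the fold changes of several named genes are therefore given with and without it. Counts of the 43 genes at an unadjusted p under 0.05 or with separated libraries are given mainly with it. Counts of cell type markers and results of DESeq2 are given only with it. No replicates were identical. Sertoli cell markers (*Sox9*, *Amh*, *Dhh*, *Mro*, *Ptgds*) were detected in every library, in the labelled tissue, with summed levels of 948 to 1081 CPM, a count scaled to the size of its library, in F1 control, 982 to 1256 in F1 *thia*, 298 to 437 in F3 control and 302 to 712 in F3 *thia*. Erythroid markers summed to 2038 to 7078 CPM in F1 control, 3351 to 8495 in F1 *thia* and 27030.0 to 30280.0 CPM in F3 control. In F3 *thia* they summed to 19240.0, 38260.0 and 20000.0 CPM, so that replicate 2 lay above all F3 controls and replicates 1 and 3 below them.

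All 43 genes had reads. Averaged over the 12 libraries, 29 had at least 10 CPM, 12 had 1 to 10 CPM and 2 had less than 1 CPM. The latter were *Itgax*, the alpha subunit of a receptor of dendritic cells and macrophages, and *Itgb6*, an epithelial subunit, which alone failed the filter on low counts. The other 42 were tested in every comparison.

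To compare genes with each other, levels were divided by exon length and are given as CPM per kilobase, mean ± SD with n = 3 libraries. *Itgb1*, the subunit shared by most matrix receptors, led the beta subunits with 154 ± 15.1 in F1 control and 122 ± 10.9 in F3 control, and *Itgb5*, a partner of alphav, came next with 43 ± 2.9 and 33.3 ± 3.26. *Itgb1* held 74.8 ± 2.35% of the beta subunit level in F1 control and 72.2 ± 0.471% in F3 *thia*, and *Itgb5* held 21 ± 2.59% and 22.1 ± 0.966%. Both stood above the remaining beta subunits in every library.

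Among the alpha subunits *Itga9*, a receptor subunit for tenascin and related ligands, and *Itga6*, a laminin receptor subunit, had the highest levels. Their CPM per kilobase in F1 control were 34.2 ± 0.184 for *Itga9* and 24 ± 1.72 for *Itga6*, and in F3 control 20.6 ± 1.64 and 10.9 ± 1.94. *Itga9* lay above *Itga6* in 12 of 12 libraries, but this order rests on the gene length used, because with the longest transcript in place of all exons *Itga6* reached 50.3 and *Itga9* 37.5 CPM per kilobase in F1 control. *Itga5*, the fibronectin receptor subunit, had 13.6 ± 1.63 CPM per kilobase in F1 control and was above *Itga3*, the next in order, in 11 of 12 libraries. *Itga3* lay above *Itgav* and *Itgav* above *Itga8* in 11 of 12 libraries each, and *Itga4* lay above *Itga11* in 12 of 12. *Itga8* exceeded *Itga4* in only 8 of 12, and from *Itga1* down to *Itgad* each neighbour exceeded the next in 7 to 9 of 12, so their order is not resolved. The leukocyte subunits *Itgad*, *Itgae*, *Itgal*, *Itgam* and *Itgax* all lay below 1.5 CPM per kilobase in every library.

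**Figure D1:**
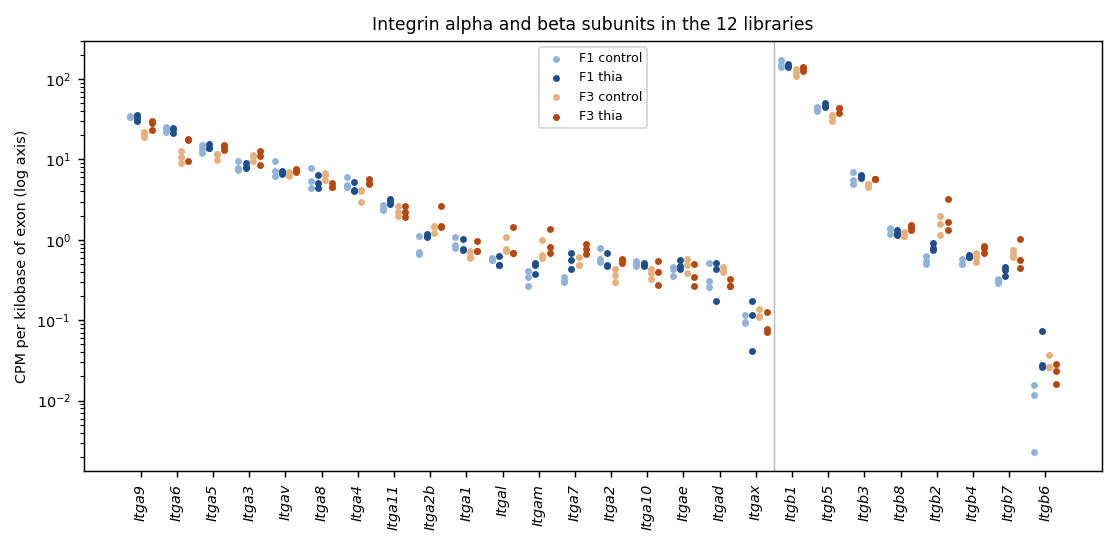
CPM per kilobase of exon (log axis) of 18 integrin alpha and 8 integrin beta subunits, each point 1 library and each colour 1 group of 3. *Itgb1* and *Itgb5* stand above all other subunits, *Itgb6* lies lowest in 11 of 12 libraries, and the F3 control points of *Itga9* and *Itga6* lie below both F1 groups.

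The laminin chains had a clear leader in the beta class and, with levels divided by all exons, none in the alpha class. *Lamb1* held 78.2 ± 0.387% of the beta chain level in F1 control and 73.1 ± 2.52% in F3 *thia*, ahead of *Lamb2*, a chain of vessel and muscle laminins, with 21.1 ± 0.363% and 25.4 ± 2.65%. *Lamc1*, the gamma chain of most laminins, had 23.9 ± 2.82 CPM per kilobase in F1 control, 23.2 ± 2.43 in F3 control and 37.5 ± 2.96 in F3 *thia*, above *Lamc3* in 12 of 12 libraries. In the alpha class *Lama4* (a chain of blood vessel laminins), *Lama1* (an early embryonic chain, also of tubule membranes) and *Lama5* (the most widespread chain of mature membranes) were close together. By all exons *Lama4* lay above *Lama1* in 6 of 12 libraries and *Lama1* above *Lama5* in 7 of 12, so the order of these neighbours is not resolved by that length. *Lama2*, the muscle and peripheral nerve chain, followed in 12 of 12 libraries and *Lama3*, an epithelial chain, came last in 12 of 12. Shares in the alpha class depend on transcript length, since *Lama4* took 31.1 ± 4.61% of it in F1 control by all exons and 44.4% by the longest transcript. The lack of a leader in the alpha class therefore rests on the length used.

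Nidogens link laminin to collagen IV, and *Nid1* had 37.8 ± 4.2 CPM per kilobase in F1 control and 47.9 ± 4.56 in F3 *thia*, above *Nid2* in 12 of 12 libraries. *Fn1*, fibronectin, had 34.4 ± 6.64 in F1 control and 43.2 ± 6.51 in F3 *thia*. The thrombospondins, secreted matrix proteins that bind integrins, were lower, with 6.58 ± 1.49 for *Thbs1* and 6.27 ± 1.46 for *Thbs2* in F1 control.

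The first comparison asked what direct exposure in the womb did to these genes. In F1, 30 of 42 had a log2 fold change above 0, with a median of 0.11 where that of all 19137 genes tested was 0.01, and none passed the test. With edgeR and an adjusted p under 0.15, 0 of 42 were called, against 0.0105% of all genes. At an unadjusted p under 0.05, 6 of 42 were higher in F1 *thia* and 0 were lower, where 4.63% of all genes were higher and 4.13% lower. In 8 genes all 3 F1 *thia* libraries lay above all 3 F1 control libraries and in 0 the reverse, where 6.55% of all genes were apart upwards and 8.45% downwards. DESeq2 called 2 higher and 0 lower at an adjusted p under 0.15, where it called 0.488% of all genes higher and 0.525% lower.

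Those called by DESeq2 were *Lamb3* and *Itga7*. *Lamb3*, the beta chain of the epithelial laminin that anchors skin, had 1.97, 2.05 and 1.74 CPM in the F1 control libraries and 4.08, 3.94 and 3.76 in F1 *thia*. The groups were far from overlapping, at 2.06-fold (log2 1.04 ± 0.18 SE, unadjusted p = 0.000143 and adjusted p = 0.201 in edgeR, adjusted p = 0.00147 in DESeq2). The level was low, as *Lamb3* made up 0.656 ± 0.0241% of the beta chain level in F1 control and 1.23 ± 0.0843% in F1 *thia*. *Itga7*, the laminin receptor subunit of muscle, had 2.42, 2.81 and 2.48 CPM in F1 control and 4.49, 5.6 and 3.49 in F1 *thia*, again without overlap (log2 0.82 ± 0.21 SE, adjusted p = 0.446 in edgeR and 0.0697 in DESeq2). Skeletal muscle markers in the same F1 *thia* libraries summed to 47.1, 536 and 29.6 CPM, against 70.6, 28.7 and 23.9 in F1 control. None of the 8 markers was at 0 in every library, 3 of them were higher at an unadjusted p under 0.05, and their part in the *Itga7* value was not tested.

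The remaining genes with separated libraries and an unadjusted p under 0.05 were smaller in effect. *Itgb2*, the beta subunit of leukocyte integrins, had 1.95, 1.54 and 1.67 CPM in F1 control and 2.45, 2.83 and 2.3 in F1 *thia* (log2 0.57 ± 0.20 SE, edgeR adjusted p = 0.518). Macrophage markers moved with it, at 41.1 to 49.99 CPM in F1 control and 50.6 to 63.6 in F1 *thia*, with 3 of 6 higher at an unadjusted p under 0.05 and none at 0 throughout, and their part in it was not tested. *Lama2* had 42.3, 36.5 and 44.5 CPM in F1 control and 47, 47.5 and 54.2 in F1 *thia* (log2 0.29 ± 0.11 SE, edgeR adjusted p = 0.523). *Itga11*, a collagen receptor subunit of fibroblasts, had 13.9, 12.3 and 12 CPM in F1 control and 16.5, 14.4 and 15.7 in F1 *thia* (log2 0.30 ± 0.11 SE, edgeR adjusted p = 0.523). These separations were narrow, as the lowest F1 *thia* value of *Lama2* exceeded the highest control value by less than the spread within either group. The count of 6 fell to 2 without F1 control replicate 2 and to 2 with all 12 libraries in one fit. The share of all genes in those fits is not given here, so no excess over all genes is claimed for them.

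The second comparison asked what was found in F3, which was not itself exposed. There most laminin and matrix genes lay higher in *thia* than in control testes. The summed level of the 11 laminin chains was 757, 895 and 856 CPM in F3 control and 1130.0, 1155 and 1386 in F3 *thia*. The summed level of the 26 integrin subunits was 1218, 1368 and 1207 CPM in F3 control and 1516, 1387 and 1580.0 in F3 *thia*. Both sums were without overlap between the groups, and the laminin sum was the further apart. Of the 42 genes tested, 35 had a log2 fold change above 0, with a median of 0.34 where that of all 18539 genes tested was 0.00. Without F3 *thia* replicate 2, 33 of 42 lay above 0.

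The count of calls in F3 depended on the test. EdgeR called 0 of 42 at an adjusted p under 0.1 and 0.00% of all genes, since the smallest adjusted p of any gene was 0.101. At an adjusted p under 0.15, 14 of 42 were higher and 1 was lower in F3 *thia*, where 5.07% of all genes were higher and 4.78% lower. At an unadjusted p under 0.05, 20 of 42 were higher and 2 lower, that is 47.6% and 4.76%, where 11.0% of all genes were higher and 10.0% lower. In 18 genes the 3 F3 *thia* libraries lay above the 3 F3 control libraries and in 2 below, where 13.4% of all genes were apart upwards and 13.9% downwards. DESeq2, with a Wald test, called 20 higher and 1 lower at an adjusted p under 0.1, where it called 9.17% of all genes higher and 5.70% lower. Without F3 *thia* replicate 2, edgeR called 11 of 42 at an adjusted p under 0.1, all of them higher, namely *Lamc1*, *Lama4*, *Lama1*, *Lama2*, *Lamb1*, *Lamb2*, *Nid1*, *Thbs2*, *Itga6*, *Itga9* and *Itgb5*, where it called 6.82% of all genes.

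**Figure D2:**
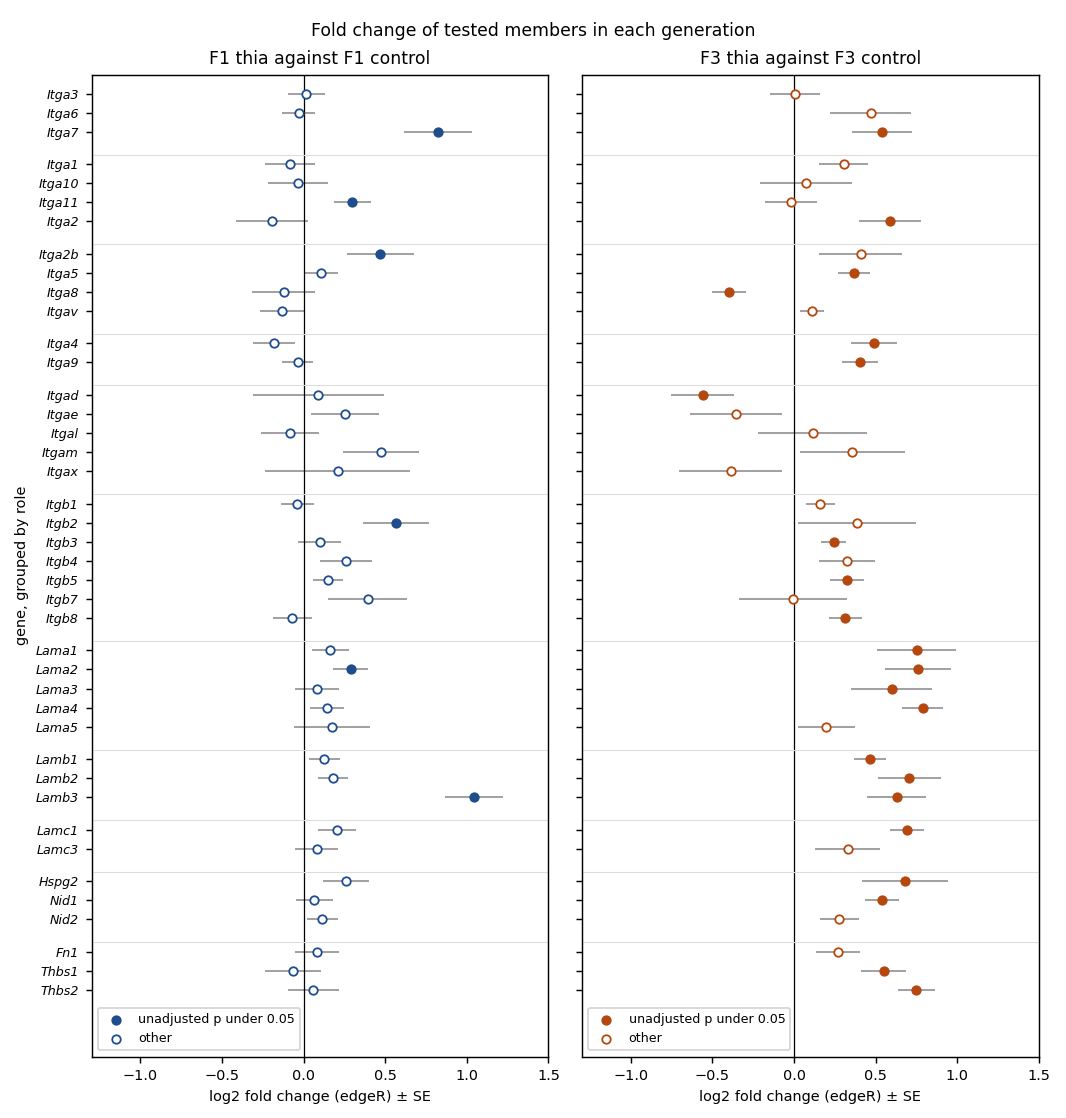
Log2 fold change (edgeR) ± SE of *thia* against control for 41 of the 42 genes tested, grouped by role, in F1 (left) and F3 (right). Filled points have an unadjusted p under 0.05, 6 in F1 and 22 in F3, and in F3 all laminin alpha and beta chains lie to the right of 0.

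*Lamc1* (gene at chr1:153218922-153332786 (- strand), GRCm38) had the smallest p of the 42. Its levels were 169.5, 207 and 200.2 CPM in F3 control and 286, 311 and 335 in F3 *thia*, so that every *thia* library lay well above every control library. The difference was 1.61-fold (log2 0.69 ± 0.10 SE, unadjusted p = 0.000253, adjusted p = 0.101 in edgeR and 4.33e-06 in DESeq2). The gamma chain *Lamc3* (log2 0.33 ± 0.20 SE, edgeR adjusted p = 0.388) passed none of these tests.

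Among the beta chains all 3 were apart between the groups. *Lamb1* (chr12:31265234-31329644 (+ strand)) had 287, 310.1 and 301 CPM in F3 control and 397, 376 and 466 in F3 *thia* (log2 0.46 ± 0.10 SE, adjusted p = 0.105 in edgeR and 0.00261 in DESeq2). *Lamb2* had 44.3, 58.7 and 60.7 CPM in F3 control and 73.1, 80.9 and 113 in F3 *thia* (log2 0.71 ± 0.19 SE, adjusted p = 0.126 in edgeR and 0.00689 in DESeq2). Replicate 3 was the highest F3 *thia* library for both. *Lamb3*, at a low level, had 3.72, 3.53 and 3.11 CPM in F3 control and 4.95, 6.33 and 4.78 in F3 *thia* (edgeR adjusted p = 0.132).

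Of the alpha chains 4 of 5 were higher at an unadjusted p under 0.05. *Lama4* (chr10:38965515-39110188 (+ strand)) had 42.7, 59.7 and 55.5 CPM in F3 control and 93.3, 84.5 and 95 in F3 *thia*, which is 1.73-fold (log2 0.79 ± 0.13 SE, adjusted p = 0.104 in edgeR and 1.47e-05 in DESeq2). Its F3 *thia* values lay among those of F1, where the libraries had 87.6, 72.3 and 93.5 CPM in control and 88.9, 95.7 and 91.8 in *thia*. *Lama2* had 28.3, 36.4 and 45.5 CPM in F3 control and 56.7, 53.9 and 76.1 in F3 *thia* (log2 0.76 ± 0.20 SE, adjusted p = 0.123 in edgeR and 0.00482 in DESeq2). *Lama1* had 37.9, 51.4 and 45.8 CPM in F3 control and 72.1, 52 and 103 in F3 *thia*, where replicate 2 was barely above the highest control (log2 0.75 ± 0.24 SE, adjusted p = 0.152 in edgeR). *Lama5*, by contrast, had overlapping groups, at 64.4, 77 and 74 CPM in F3 control and 60.7, 99 and 87.5 in F3 *thia* (log2 0.20 ± 0.18 SE, edgeR adjusted p = 0.56).

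**Figure D3:**
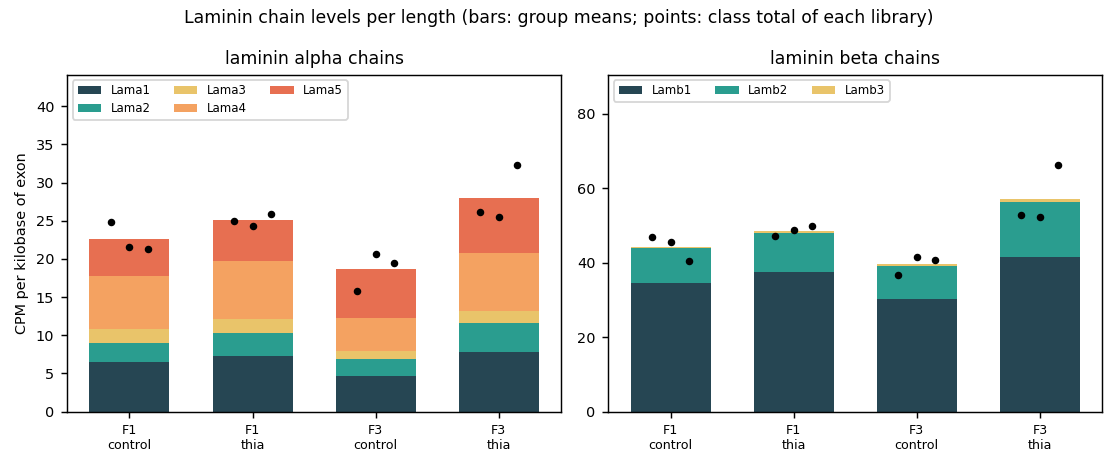
Laminin alpha and beta chain levels in CPM per kilobase of exon, stacked by chain as means of 3 libraries, with points for the class total of each library. In both classes the 3 F3 *thia* totals lie above the 3 F3 control totals, at 28 ± 3.77 against 18.6 ± 2.48 for the alpha chains (mean ± SD).

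Shares of the chains were also compared between the F3 groups. *Lama4* held 23.3 ± 0.871% of the alpha chain level in F3 control and 27.1 ± 2.64% in F3 *thia*. *Lama5* held 34 ± 1.55% of it in F3 control and 26.1 ± 7.09% in F3 *thia*, where the SD was large. These shares were described and not tested.

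Of the linking proteins of the membrane 2 of 3 were higher at an unadjusted p under 0.05. *Nid1* (chr13:13437551-13512269 (+ strand)) had 206, 237 and 243 CPM in F3 control and 316, 313 and 369 in F3 *thia*, without overlap (log2 0.54 ± 0.10 SE, adjusted p = 0.105 in edgeR and 0.000569 in DESeq2). *Nid2* had a smaller difference (log2 0.28 ± 0.12 SE, edgeR adjusted p = 0.247). *Hspg2*, perlecan, had 124, 147 and 177 CPM in F3 control and 163, 218 and 337 in F3 *thia*, with 1 *thia* library inside the control range (log2 0.68 ± 0.27 SE, edgeR adjusted p = 0.203).

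Of the secreted integrin ligands among the 43 genes, *Thbs2* (chr17:14665500-14694235 (- strand)) had 44, 45.1 and 52.7 CPM in F3 control and 71.4, 78.6 and 88.7 in F3 *thia*. Every *thia* library exceeded every control, by 1.68-fold on average (log2 0.75 ± 0.12 SE, unadjusted p = 0.000265, adjusted p = 0.101 in edgeR and 6.1e-06 in DESeq2). *Thbs1* had 25.7, 32.6 and 33.3 CPM in F3 control and 38.2, 47.2 and 48.8 in F3 *thia* (log2 0.55 ± 0.14 SE, adjusted p = 0.117 in edgeR and 0.00858 in DESeq2). *Fn1* was not separated, at 372, 439.7 and 446 CPM in F3 control and 418, 542 and 556 in F3 *thia* (log2 0.27 ± 0.13 SE, edgeR adjusted p = 0.299).

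**Figure D4:**
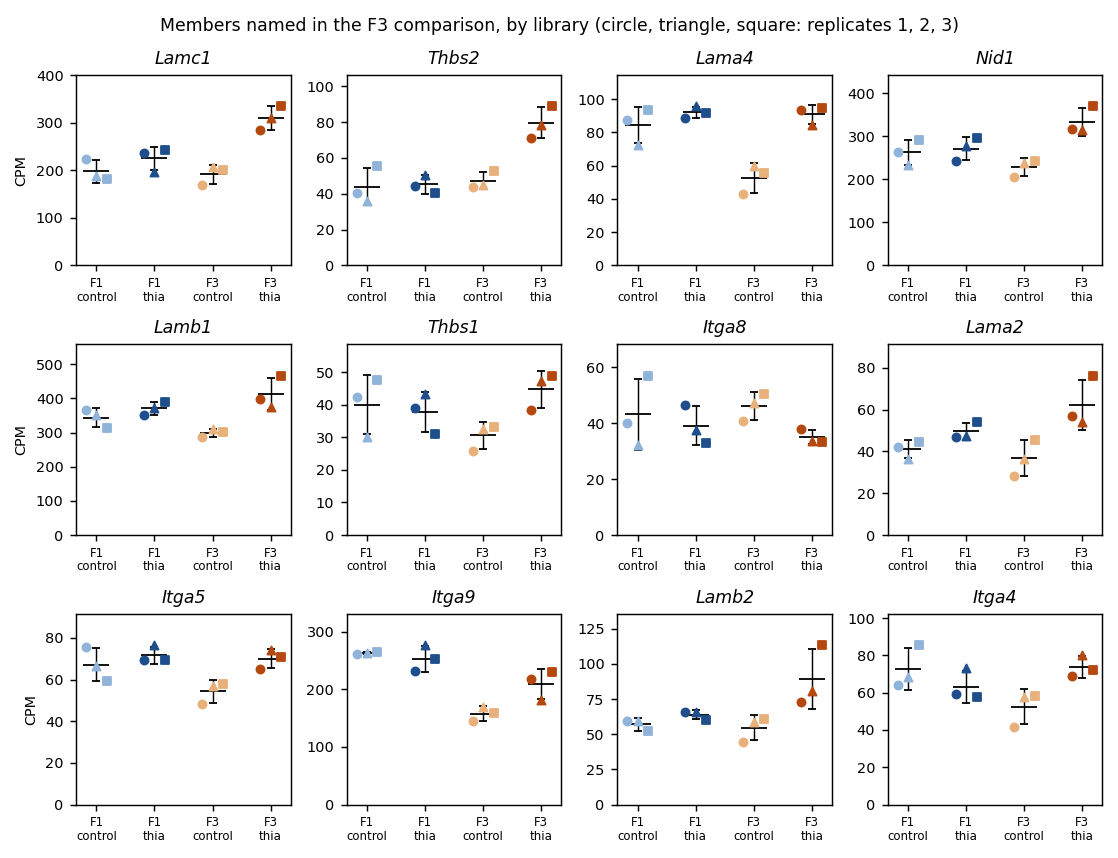
CPM in each of the 12 libraries for the 12 genes with separated F3 groups and the smallest p, with circles, triangles and squares for replicates 1, 2 and 3 and bars for mean ± SD of 3 libraries. F3 *thia* lies above F3 control for 11 of them and below it for *Itga8*, at 35.1 ± 2.59 against 46.1 ± 4.95 CPM.

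At an unadjusted p under 0.05, 8 of the 25 integrin subunits tested were higher and 2 lower, beside 8 of 11 laminin chains higher and 0 lower, where 11.0% of all genes were higher and 10.0% lower. The integrins lower by that rule, *Itga8* and *Itgad*, were alpha subunits, and their share was near that of all genes. *Itga8*, the receptor subunit for nephronectin, was the 1 gene lower at an adjusted p under 0.15, with 40.8, 47.1 and 50.5 CPM in F3 control and 38.1, 33.8 and 33.4 in F3 *thia* (log2 -0.40 ± 0.10 SE, adjusted p = 0.12 in edgeR and 0.0331 in DESeq2). *Itga5* had 48.1, 57 and 58 CPM in F3 control and 65.1, 74.1 and 71 in F3 *thia* (log2 0.36 ± 0.10 SE, adjusted p = 0.125 in edgeR and 0.0276 in DESeq2). *Itga5* and *Itga8* are both subunits of receptors for ligands with the RGD motif, and their libraries were separated in opposite directions.

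*Itga9* and *Itga4*, related subunits of which the latter binds fibronectin and the vascular ligand VCAM-1, were both higher. *Itga9* had 145, 170.0 and 159 CPM in F3 control and 217, 181 and 231 in F3 *thia* (log2 0.41 ± 0.11 SE, adjusted p = 0.126 in edgeR and 0.0215 in DESeq2). *Itga4* had 41.5, 57.4 and 58.1 CPM in F3 control and 69, 80.2 and 71.9 in F3 *thia* (log2 0.49 ± 0.14 SE, adjusted p = 0.132 in edgeR and 0.0204 in DESeq2). Replicate 2 was the lowest F3 *thia* library for *Itga9* and the highest for *Itga4*.

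*Itga6*, a receptor subunit for laminin, had 97.8, 116 and 81 CPM in F3 control and 159, 85.7 and 162 in F3 *thia*. Replicates 1 and 3 lay above all controls and replicate 2 among them, and the gene did not pass with all libraries (log2 0.47 ± 0.25 SE, edgeR adjusted p = 0.325). The Sertoli cell markers had the same pattern, at 300.5, 437 and 298 CPM in F3 control and 645, 302 and 712 in F3 *thia*, and their part in the *Itga6* value was not tested. Among the beta subunits *Itgb3* (with alphav a receptor for vitronectin), *Itgb5* and *Itgb8* were higher at an unadjusted p under 0.05 and *Itgb1* was not. *Itgb1* had 501, 539 and 450.3 CPM in F3 control and 560.2, 521 and 585 in F3 *thia* (log2 0.16 ± 0.09 SE, edgeR adjusted p = 0.352). The 5 leukocyte alpha subunits had a median log2 fold change of -0.36 and 1 of them, *Itgad*, was lower at an unadjusted p under 0.05 (log2 -0.56 ± 0.19 SE, edgeR adjusted p = 0.168). Among the 22 filled points of F3 in the plot of fold changes, those of *Itgad* and *Itga7* missed an unadjusted p under 0.05 without F3 *thia* replicate 2 (edgeR unadjusted p = 0.0606 and 0.0592).

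Without F3 *thia* replicate 2 the laminin differences changed by gene. That of *Lama1* was then 0.96, that of *Lamb1* 0.53, that of *Lama5* 0.048 and that of *Lamb3* 0.49 on the log2 scale. In the same fit *Lamc1* had a log2 fold change of 0.69 (edgeR adjusted p = 0.0641), *Lama4* of 0.84 (edgeR adjusted p = 0.0631), *Thbs2* of 0.76 (edgeR adjusted p = 0.0631) and *Nid1* of 0.58 (edgeR adjusted p = 0.0691). There *Thbs1* had 0.51, *Itga8* -0.37, *Itga5* 0.32 and *Itga4* 0.43, with edgeR adjusted p = 0.12, 0.134, 0.146 and 0.154 in that order. Over all alternatives the adjusted p of *Lamc1* ran from 4.33e-06 to 0.364 and that of *Lama4* from 1.47e-05 to 0.364.

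Markers of several cell types were set beside these genes in F3. Of 6 endothelial markers 5 were higher at an unadjusted p under 0.05, none was at 0, and their sum was 160.5, 183 and 172 CPM in F3 control and 240.3, 234 and 283 in F3 *thia*, where 11.0% of all genes were higher by that rule. *Cdh5*, the endothelial cadherin, had the smallest p of them (log2 1.14 ± 0.16 SE, edgeR adjusted p = 0.101). Of 5 Sertoli cell markers 1 was higher, and their sums overlapped between the groups. Of 5 fetal Leydig cell markers 2 were higher, and the sum of the 5 was 2166 to 3596 CPM in F3 control and 3800.0 to 6881 in F3 *thia*. Of 4 Schwann cell and neural crest markers tested 2 were higher and 0 lower. Their list summed to 14.4 to 18.6 CPM in F3 control and 18.99 to 25.5 in F3 *thia*. Of 6 germ cell markers 2 were lower, where 10.0% of all genes were lower by that rule. Their sums overlapped, at 529 to 800.2 CPM in F3 control and 351 to 630.2 in F3 *thia*. By the same rule 2 of 6 interstitial mesenchyme, 1 of 6 smooth muscle and myoid and 1 of 8 skeletal muscle markers were higher. So were 1 of 4 adrenal cortex markers tested and 1 of 4 granulosa cell markers. Adrenal cortex sums did not overlap, at 39.6 to 59.5 CPM in F3 control and 66.2 to 122 in F3 *thia*. The macrophage, platelet, erythroid, mesonephric and mesothelium lists had 0 higher. Lower were 1 marker each of the skeletal muscle, erythroid and mesonephric lists. The part of these cell types in the laminin and integrin values was not tested.

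The promoters are shown for those 3 of the 5 genes with the smallest p in F3 that had an entry, and for *Itga8*, which lay in the other direction. Each is 250 bases before and 50 from the start of transcription on, 5′ to 3′, from RefSeq on GRCm38.p6, at chr17:14694213-14694512, - strand for *Thbs2*, chr13:13437352-13437651, + strand for *Nid1*, chr12:31265043-31265342, + strand for *Lamb1* and chr2:12301895-12302194, - strand for *Itga8*. Capitals mark matches on either strand to the GC box GGGCGG, the CCAAT box CCAAT, the TATA box TATAAA and the AP-1 site TGANTCA, with no overlap between them in these windows.
Thbs2: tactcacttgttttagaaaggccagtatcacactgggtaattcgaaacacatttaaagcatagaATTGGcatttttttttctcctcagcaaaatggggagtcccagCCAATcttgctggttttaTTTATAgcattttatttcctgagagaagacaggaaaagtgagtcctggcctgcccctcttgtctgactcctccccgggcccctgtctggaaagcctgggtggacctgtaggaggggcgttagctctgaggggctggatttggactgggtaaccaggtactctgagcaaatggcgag
Nid1: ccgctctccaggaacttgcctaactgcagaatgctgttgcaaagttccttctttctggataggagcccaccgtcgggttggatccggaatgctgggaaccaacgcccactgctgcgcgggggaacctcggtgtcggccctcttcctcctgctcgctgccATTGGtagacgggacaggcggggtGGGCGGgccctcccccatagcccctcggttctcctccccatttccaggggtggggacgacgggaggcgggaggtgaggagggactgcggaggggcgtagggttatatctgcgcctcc
Lamb1: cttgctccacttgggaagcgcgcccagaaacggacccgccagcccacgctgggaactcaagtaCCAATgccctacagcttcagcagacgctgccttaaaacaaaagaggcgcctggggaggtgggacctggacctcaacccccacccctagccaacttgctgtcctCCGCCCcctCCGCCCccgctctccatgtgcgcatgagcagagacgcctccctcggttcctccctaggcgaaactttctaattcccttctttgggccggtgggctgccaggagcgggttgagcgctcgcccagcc
Itga8: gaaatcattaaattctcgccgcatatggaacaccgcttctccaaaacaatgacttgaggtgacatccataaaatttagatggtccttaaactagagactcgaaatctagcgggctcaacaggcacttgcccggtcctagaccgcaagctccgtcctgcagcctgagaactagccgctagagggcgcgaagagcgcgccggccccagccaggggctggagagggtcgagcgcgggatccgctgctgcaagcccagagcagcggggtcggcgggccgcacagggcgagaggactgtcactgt
*Thbs2* held CCAAT and, on the opposite strand at position -126 from the start, the letters of the TATA box. *Nid1* and *Lamb1* held CCAAT and a GC box, and *Itga8* held none of the letters searched. *Lamc1* and *Lama4* had no entry. Of the 43 genes 26 had an entry, and 13 of these held the GC box, 5 the CCAAT box, 1 the TATA box and 2 the AP-1 site, where 35.7%, 37.4%, 13.6% and 7.81% of all 32851 promoters did. The median GC content was 59.2% in the 26 windows and 52.7% in all.

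Other genes of the same pathways were counted in F3 from 3 lists. Of 24 other basement membrane genes, 11 were higher at an unadjusted p under 0.05 and 0 lower, where 11.0% of all genes were higher and 10.0% lower, with a median log2 fold change of 0.31. They included the collagen IV chains *Col4a1* (log2 1.01 ± 0.29 SE, edgeR adjusted p = 0.136) and *Col4a2* (log2 0.93 ± 0.24 SE, edgeR adjusted p = 0.121), the former chosen for mention after its value was seen, and by the smallest p *Smoc2* and *Smoc1*, secreted calcium-binding proteins of the membrane (log2 0.37 and 0.69, edgeR adjusted p = 0.105 and 0.108). Of 26 integrin linkers and signalling genes, 9 were higher and 2 lower, with a median of 0.14. *Tln1*, talin, which couples integrins to actin, had a log2 fold change of 0.57 ± 0.13 SE (edgeR adjusted p = 0.108), and *Vcl*, vinculin, of 0.39 ± 0.10 SE (edgeR adjusted p = 0.118). Of 17 other integrin ligands, 1 was higher and 1 lower, the latter being *Spp1*, osteopontin (log2 -0.62 ± 0.10 SE, edgeR adjusted p = 0.101). In F1 the same lists had 0 of 24, 2 of 26 and 3 of 17 genes higher at an unadjusted p under 0.05 and 0 lower, where 4.63% of all genes were higher and 4.13% lower. Without F3 *thia* replicate 2 the F3 counts were 13, 8 and 2 higher and 0, 2 and 2 lower, where 11.9% of all genes were higher and 10.4% lower.

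The difference between the generations was then tested itself, as the *thia* effect in F3 minus that in F1 in one fit of 12 libraries. EdgeR called 0 of 42 at an adjusted p under 0.1 and 0.00510% of all 19626 genes, and DESeq2 called 5 higher in F3 than in F1 and 0 lower, where it called 2.85% and 1.89% of all genes. At an unadjusted p under 0.05, 11 of 42 had the larger log2 fold change in F3 and 0 in F1, that is 26.2% and 0%, where 7.93% and 6.10% of all genes did. The median difference was 0.22, where that of all genes was 0.02. By the same rule 4 of 5 fetal Leydig cell markers (median 0.92) and 3 of 6 endothelial markers (median 0.44) also had the larger log2 fold change in F3, while 3 of 8 skeletal muscle markers had it in F1, and their part was not tested.

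The 4 with the smallest p were *Lama4* (difference of log2 fold changes 0.66 ± 0.17 SE, edgeR adjusted p = 0.248, DESeq2 adjusted p = 0.0415), *Thbs2* (0.71 ± 0.21 SE, edgeR adjusted p = 0.252, DESeq2 adjusted p = 0.0708), *Itga4* (0.69 ± 0.21 SE, edgeR adjusted p = 0.252, DESeq2 adjusted p = 0.0765) and *Itga9* (0.46 ± 0.14 SE, edgeR adjusted p = 0.254, DESeq2 adjusted p = 0.0906). Without F3 *thia* replicate 2 the edgeR adjusted p of these 4 genes was 0.134, 0.18, 0.206 and 0.125 in the same order. For *Lama4* the log2 fold change was 0.14 in F1 and 0.79 in F3, and for *Itga4* -0.18 and 0.49. The count of 11 fell to 7 once a trend with gene length was removed, and the share of all genes in that fit is not given here. *Lamb3* had the larger log2 fold change in F1, 1.04 beside 0.63 in F3, but the difference did not pass (-0.40 ± 0.23 SE, edgeR unadjusted p = 0.11).

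The control testes of the 2 generations were compared last, to show the levels against which each *thia* group was set. Generation and set of libraries cannot be told apart here, and the comparisons of *thia* share these controls. EdgeR called 9 of 42 higher and 12 lower in F3 control at an adjusted p under 0.1, where it called 19.9% of all genes higher and 22.4% lower, so that the shares of 21.4% and 28.6% were near those of all genes. Once a trend with gene length was removed the balance turned, with 12 higher and 7 lower. The share of all genes in that fit is not given here, so the turn is not read as a result about these genes. The 12 lower in the main fit included the most abundant receptor subunits. *Itga9* had 262, 263 and 264 CPM in F1 control and 145, 170.0 and 159 in F3 control (log2 -0.73 ± 0.10 SE, edgeR adjusted p = 0.000413). *Itga6* had 201, 218 and 232 CPM in F1 control and 97.8, 116 and 81 in F3 control (log2 -1.14 ± 0.20 SE, edgeR adjusted p = 0.00146). In both genes the groups were widely separated, as were the Sertoli cell markers given above, whose part was not tested.

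*Itgb1* (log2 -0.34 ± 0.10 SE, edgeR adjusted p = 0.0171), *Itgb5* (log2 -0.37 ± 0.10 SE, edgeR adjusted p = 0.0114) and *Lama4* (log2 -0.68 ± 0.12 SE, edgeR adjusted p = 0.00158) were also lower in F3 control. The remaining 7 lower genes were *Itga2*, *Lama3*, *Itga4*, *Itga5*, *Itga1*, *Lama1* and *Itgb3*. Endothelial markers summed to 225 to 276 CPM in F1 control and 160.5 to 183 in F3 control, and their part was not tested.

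Among those higher in F3 control were the leukocyte subunits *Itgb2*, *Itgam* and *Itgb7*, the platelet subunit *Itga2b*, and *Lamb3*, *Itga7*, *Itga3* and *Nid2*. Markers of several cell types were also called higher there, 4 of 4 surface mesothelium markers (151 to 203 CPM in F1 control and 475 to 576 in F3 control), 5 of 6 of smooth muscle and myoid cells (802 to 828 and 1264 to 1447 CPM) and 3 of 8 of skeletal muscle (23.9 to 70.6 and 69.7 to 231 CPM). No marker of these lists was at 0 in every library, and their part in these genes was not tested. *Itgb2* had 1.95, 1.54 and 1.67 CPM in F1 control and 4.81, 3.56 and 6.08 in F3 control (log2 1.49 ± 0.31 SE, edgeR adjusted p = 0.00348). *Itgam*, its partner in macrophages, had 1.72, 1.33 and 2.04 CPM in F1 control and 3.23, 2.99 and 4.97 in F3 control (log2 1.15 ± 0.29 SE, edgeR adjusted p = 0.0107). Macrophage markers summed to 41.1 to 49.99 CPM in F1 control and 83.7 to 136 in F3 control, and their part was not tested. *Lamb3* was higher in F3 control (log2 0.84 ± 0.17 SE, edgeR adjusted p = 0.00269), while *Lama3*, the alpha chain of the same epithelial laminin, was lower (log2 -0.71 ± 0.22 SE, edgeR adjusted p = 0.0249). The call of *Lama3* was lost without F3 control replicate 3 (edgeR adjusted p = 0.101) and once a trend with gene length was removed (edgeR adjusted p = 0.113). Of the 21 calls, 12 held whichever library was left out, and those of *Lama3*, *Itga4*, *Itga2b*, *Itga5*, *Itga1*, *Itga3*, *Nid2*, *Lama1* and *Itgb3* were each lost without at least 1 of the 12 libraries.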

How the data were processed

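Strand-specific libraries (NEBNext Ultra II Directional) of 12 pools of 3 E15.5 testes each were sequenced as paired ends. The authors aligned the reads with HISAT2 2.1.0 to mm10 and made the deposited files with featureCounts and a RefSeq annotation, as raw counts per gene. Whether reads or pairs were counted, and the featureCounts version, are not given in the sources used here. Groups were taken from the sample labels.

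From these counts, edgeR 4.0.16 (R 4.3.3) was used with its quasi-likelihood test, TMM scaling, filterByExpr with a minimum count of 10, and Benjamini-Hochberg adjustment over all genes tested. Each generation was fitted on its own 6 libraries, with a threshold of 0.15 (F1) or 0.1 (F3). The difference between generations and that between controls were fitted on 12 libraries at 0.1. An exact permutation test of 3 against 3 libraries cannot go below p = 0.1, so none is given. DESeq2 1.42.0 with its Wald test was an alternative. CPM use TMM scaling of all 12 libraries. Exon lengths and coordinates are from GENCODE M21 (GRCm38), which held all 43 genes. Scripts were tested on simulated data. For each promoter the start nearest the gene's annotated 5′ end was used; for *Itga9* and *Lamb3* it lies 105002 and 94295 bases inside the gene.

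The genes and the lists were chosen with earlier results of these data known, so a pattern those showed is not independent evidence. Named with full statistics were genes called and the 4 with the smallest p. So were those with an unadjusted p under 0.05 and separated libraries (up to 12 by p). Of the genes called between controls, some were given by name only. The leading gene of each role was given statistics in at least 1 comparison, except *Itgal* of the leukocyte alpha subunits. Some genes outside this rule were also given with statistics. Among them were *Lama1*, *Lama5*, *Lamc3*, *Nid2*, *Hspg2* and *Itgad* in F3 and *Lamb3* in the difference between generations. The values of 1 gene are not reported here. The labels number the replicates from 1 to 3 in every group, but do not say that a number marks a litter or day.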

Additional observations from a re-analysis of the deposited data

How the results depend on the processing

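Each count was recomputed with one choice changed at a time. Except where stated, the share of all genes under each choice is not given in this section. The counts then show only how calls depend on the choice, and not whether these genes differ from others. In F1 the 0 genes called by edgeR became 2 with the Wald test of DESeq2 and 2 with no filter, the 6 higher at an unadjusted p under 0.05 became 2 with all 12 libraries in one fit, and the median log2 fold change of 0.11 became 0.03 once a trend with GC content was removed. In F3 the 0 called became 21 with DESeq2, 15 at a threshold of 0.15, 14 with all 12 libraries in one fit, 8 with no filter, 5 with upper quartile scaling and 4 with at least 10 counts in every library, where fewer genes were tested. Of these, only DESeq2 and the threshold of 0.15 called a gene lower. Of all genes in F3, DESeq2 called 9.17% higher and 5.70% lower, and the threshold of 0.15 gave 5.07% and 4.78%. The 20 higher in F3 stayed between 14 and 23 and the median of the 42 genes between 0.29 and 0.35, while the 2 lower became 1 with all 12 libraries in one fit. For the difference between generations, DESeq2 called 5, removing a trend with gene length took 11 to 7 and the median from 0.22 to 0.12, upper quartile scaling took the median to 0.14, and the count lower became 1 with DESeq2, with no filter and with the length trend removed. Between the controls, the median of -0.09 became 0.00 with upper quartile scaling and 0.12 with the length trend removed, which also took the 13 lower to 8, so no direction is given for the median. The causes were not tested. Leaving out 1 library at a time gave 2 to 9 genes higher in F1, and in F3 0 to 11 called and 1 to 3 lower. It gave 0 to 4 lower and a median of 0.16 to 0.29 for the difference between generations, and a median of -0.12 to 0.05 between controls. The 11 came without F3 *thia* replicate 2, as did the 4, and the 0.05 without F3 control replicate 1.

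Same-numbered control and *thia* libraries had correlations of their deviations of -0.089, -0.055 and 0.01 in F1 and 0.272, -0.498 and -0.317 in F3, and not every library correlated best with its own number, so the numbers were not taken to pair the samples. With the replicate number as a block, edgeR called 0 in F1, F3 and the difference between generations and 20 between controls, where it called 21 without the block, and the lower genes in F3 became 1. The block with the length trend removed gave 7 higher, 1 lower and a median of 0.10 for the difference between generations, and 7 lower and a median of 0.12 between controls. Signs were checked for the genes called between controls and those in F1 with separated libraries and an unadjusted p under 0.05. The genes with separated libraries and the smallest p in F3, and those with the smallest p for the difference between generations, were checked too. None of them changed sign in its own comparison under any of these alternatives. Other genes given with statistics, among them *Lama5*, *Itga6* and *Fn1* in F3 and the genes of the lists, were not run through all of them. Levels per length and chain shares moved by more than 1 SD in 89 values with the longest transcript and 2 with upper quartile scaling. Leaving out 1 of 3 libraries cannot move a group mean by the SD of that group, so it could not show whether these levels depend on a library. *Itgb6* had 1 to 21 and *Itgax* 8 to 55 counts per library, so small differences there were not detectable at this depth.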

Other observations

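Outside the 43 genes, a few partners in the 3 lists had values of their own. In F1, *Thbs4*, a thrombospondin of tendon and muscle, was higher in *thia* (log2 0.78 ± 0.19 SE, adjusted p = 0.446 in edgeR and 0.016 in DESeq2), as was *Tgfbi*, a secreted integrin ligand (log2 0.35 ± 0.12 SE, edgeR adjusted p = 0.518). In F3, *Itgb1bp1* and *Ilk*, which bind the tail of the beta1 subunit, were lower in *thia* (log2 -0.37 ± 0.10 and -0.20 ± 0.07 SE, edgeR adjusted p = 0.119 and 0.185), while *Tns1* and *Tln2*, which link integrins to actin, were higher (log2 0.51 ± 0.12 and 0.60 ± 0.16 SE, edgeR adjusted p = 0.11 and 0.119). None of these passed the edgeR threshold of its comparison.

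F3 *thia* replicate 2 also held the highest level of several blood cell integrins among the 12 libraries. *Itga2b*, the platelet subunit, was at 14.5 CPM there and at 6.7, 8.17 and 7.97 CPM in F3 control. *Itgb2* was at 9.84 CPM and *Itgal* at 9.50 CPM in that library, and platelet markers summed to 26.5 CPM against 10.9 to 15.7 CPM in F3 control.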
